A study of Rattus norvegicus with 24 samples.

Results

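The 96 genes described here were at least 8 times as abundant in the amygdala as in the dorsal raphe of the rat, yet were still detected in the dorsal raphe. They were chosen from 32662 Ensembl gene IDs, 24750 of which had at least 1 count, by their pooled level in each region. The pooled level was the sum of a gene's counts over the 12 libraries of a region, scaled by the summed totals of those libraries, in the usual unit CPM. A member had a pooled level of at least 0.5 CPM in the dorsal raphe and at least 10 CPM in the amygdala, with a ratio of at least 8. By its definition the list left out 1 further gene. The region difference therefore chose the members, and it is described below without a test.

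Poly-A RNA was sequenced from the amygdala and the dorsal raphe of 60-day-old rats of 2 lines, each bred selectively for its reaction to novelty and called the high-responder and the low-responder strain. There were 6 libraries for each line in each region, 24 in all, and no treatment or transgene is given in the labels. The labels do not say whether a library came from 1 animal, whether tissue was pooled, or whether both regions came from the same rats. P-values therefore measure the spread between libraries, which may be partly technical.

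The amygdala is a group of nuclei of the temporal forebrain that combines cortex-like nuclei, rich in glutamatergic projection neurons, with striatum-like nuclei made up mostly of GABAergic neurons, and it is known for its part in fear learning. The dorsal raphe lies in the midbrain, and its serotonin neurons send axons through much of the forebrain, the amygdala included. In bulk tissue, fewer cells of a type and less RNA per cell cannot be told apart. Neither the tables nor the RefSeq reference paired any of the 96 IDs with a symbol (0 matched), so members are given by ID, without a named function or sequence. For the same reason the labelled tissue could not be checked against marker genes.

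Library totals ranged from 9232983 to 20194601 counts. Even the most alike libraries of a group were further apart than sampling of reads would give (chi-square over its degrees of freedom, 3.46), so none was treated as a duplicate. The tables' names carry running library numbers, and each group was split at its largest gap into earlier and later libraries. The later ones were libraries 4 to 6 of high-responder dorsal raphe, where a second gap sets library 6 apart from 4 and 5, and libraries 5 and 6 of each other group. All low-responder numbers come before all high-responder numbers, so line and number order cannot be told apart, and later and earlier have a meaning only within a group. The labels do not say what these numbers stand for.

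Together the 96 members took 1.71% of all amygdala counts and 0.0982% of all dorsal raphe counts, a summed level of 17144 CPM against 982 CPM. Their pooled amygdala level ran from 10.7 to 1905 CPM, with a median of 51.6 CPM. Their dorsal raphe level ran from 0.516 to 205 CPM, with a median of 3.23 CPM. Most members were thus low in the dorsal raphe but rested on many reads there. The pooled dorsal raphe counts per member were 79 to 31291, with a median of 494.5, and 95 of 96 members had at least 1 count in each of the 12 dorsal raphe libraries. The exception, ENSRNOG00000042860, had 0 counts in low-responder library 2 and 0.265 to 0.792 CPM in the other 11, and is singled out after its values were seen.

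The list leaned toward the lower end of its ratio range. Ratios of 8 to 16 were found for 53 members, of 16 to 32 for 24, of 32 to 64 for 14 and of over 64 for 5, with a median of 15.0. In the dorsal raphe, 13 members lay under 1 CPM, 60 between 1 and 10 CPM, 22 between 10 and 100 CPM and 1 above 100 CPM. CPM values are scaled by library total and not by gene length. Ranks and sums of members by CPM therefore compare shares of reads and not numbers of transcripts.

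**Figure D1:**
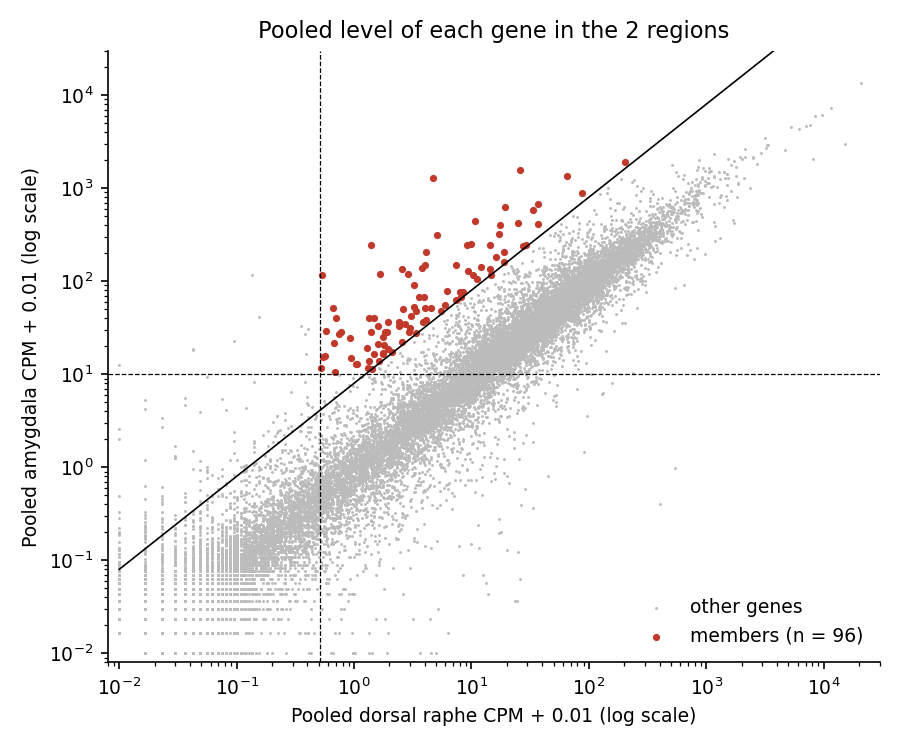
Pooled dorsal raphe level (x axis, CPM + 0.01, log scale) against pooled amygdala level (y axis, same scale) for each gene with a count. Red points are the 96 members, which lie above the solid line of ratio 8, right of the dashed line at 0.5 CPM and above the dashed line at 10 CPM; grey points are other genes.

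ENSRNOG00000059605 had the highest ratio, 272. Its amygdala level was 1095 to 1632 CPM in high-responder libraries (median 1153) and 1177 to 1609 CPM in low-responder libraries (median 1305). Its dorsal raphe level was 3.87 to 6.84 CPM (median 4.97) and 2.68 to 5.76 CPM (median 4.32). Its 721 dorsal raphe counts gave 4.71 CPM with an exact 95% Poisson interval of 4.37 to 5.07, which covers counting error only. The regions were apart in every library, and the lines overlapped in both regions.

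ENSRNOG00000013869 followed with a ratio of 225. It stood at 99.4 to 144 CPM in the amygdala of both lines and at 0.153 to 0.837 CPM in the dorsal raphe, where it rested on 80 counts (0.523 CPM, exact 95% Poisson interval 0.415 to 0.651). That level is just above the dorsal raphe minimum of the rule.

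At the other end, ENSRNOG00000060775 entered with a ratio of 8.01, at 99.3 to 150 CPM in the amygdala and 10.2 to 21.1 CPM in the dorsal raphe. ENSRNOG00000042326 had a ratio of 8.15, at 6.24 to 13.2 CPM against 0.620 to 2.28 CPM. Both had regions that did not overlap in spite of their low ratios. The next genes outside the ratio limit stood at 7.92 and 7.84. Members nearest the dorsal raphe limit stood at 0.516 and 0.523 CPM, and genes just outside it at 0.399 and 0.379 CPM. At the amygdala limit the nearest members had 10.7 and 11.5 CPM, and the nearest genes outside 9.69 and 9.45 CPM.

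The highest dorsal raphe level belonged to ENSRNOG00000016156. Its level there was 164 to 234 CPM in high-responder libraries (median 207) and 169 to 239 CPM in low-responder libraries (median 213). In the amygdala it had 1372 to 2244 CPM (median 1484) and 1615 to 2774 CPM (median 2216). ENSRNOG00000016541 was second there, with 55.6 to 125 CPM (median 91.1) in high-responder and 45.6 to 98.6 CPM (median 88.6) in low-responder dorsal raphe, against 751 to 910 CPM and 866 to 1026 CPM in the amygdala. These 2 members held 29.6% of the summed dorsal raphe level of the list, so sums over the list weigh them heavily.

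All 12 amygdala libraries lay above all 12 dorsal raphe libraries for 92 of 96 members. The same held for 11.6% of the 14977 genes tested over all libraries, and since the rule used this contrast nothing is read from the difference. For the member in the middle of the list, the lowest amygdala library was 5.84 times the highest dorsal raphe library. The 4 members whose regions overlapped, named here after their values were seen, had uneven amygdala levels. They were not alone in this, since 13 members had a highest amygdala library over 4 times the lowest.

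ENSRNOG00000016275 passed the rule through 3 of 12 amygdala libraries. It stood at 874 CPM in high-responder library 2, 1528 CPM in low-responder library 6 and 509 CPM in low-responder library 4. In the other 9 amygdala libraries it had 0 to 1.52 CPM, which overlaps its dorsal raphe range of 0.0729 to 3.07 CPM. Its pooled ratio of 178 thus describes 3 libraries and not the region as a whole.

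ENSRNOG00000021229 was just as uneven but in other libraries. It had 220 CPM in high-responder amygdala library 3, 79.2 CPM in low-responder library 3, 25.6 CPM in high-responder library 6 and 9.85 CPM in high-responder library 1. The other 8 amygdala libraries had 0.143 to 1.23 CPM, against 0.456 to 2.33 CPM in the dorsal raphe. For this member, too, most amygdala libraries were no higher than the dorsal raphe.

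ENSRNOG00000001302 spread more evenly, from 3.23 CPM in low-responder amygdala library 6 to 97.6 CPM in high-responder library 4, with an amygdala median of 55.1 CPM for the high-responder and 29.6 CPM for the low-responder line. Its dorsal raphe level was 1.52 to 5.75 CPM, and 11 of its 12 amygdala libraries lay above that range. ENSRNOG00000020009 had 10 of 12 amygdala libraries above its dorsal raphe range, and the 2 inside it were high-responder libraries 3 and 6. Its values are given with the comparison of the lines.

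**Figure D2:**
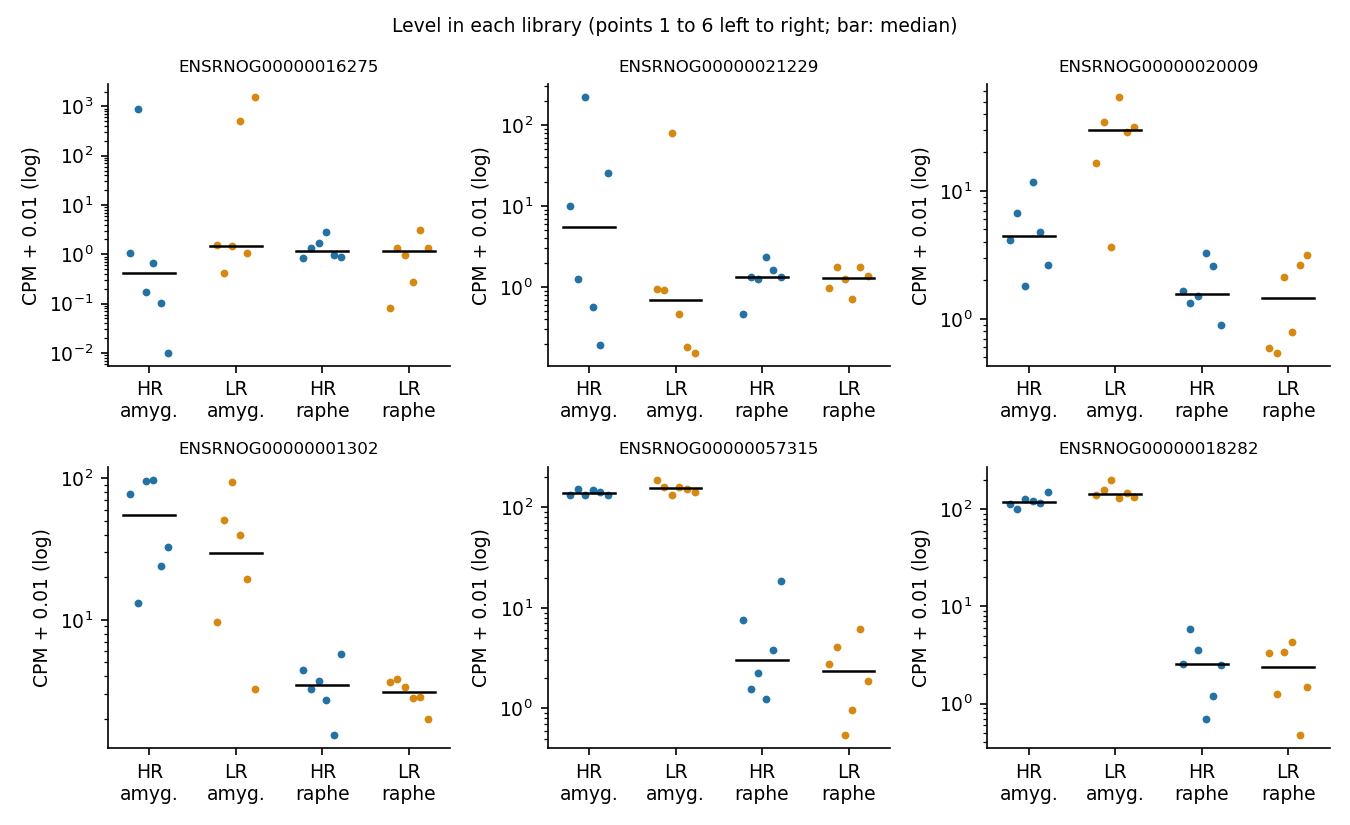
Level of 6 members in each library (y axis, CPM + 0.01, log scale, with its own range per panel) by line and region, with 6 points per group and a bar at the group median. The first 4 panels are the members whose regions overlapped, and the last 2 have amygdala levels within 1.43-fold and 1.98-fold and dorsal raphe levels spread over 35.01-fold and 12.8-fold.

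Relative to its mean level, the spread of most members was larger among dorsal raphe than among amygdala libraries. The rule itself sets their dorsal raphe level lower, where counting noise weighs more. The values below were not taken over all genes, so nothing about the members is read from this difference. The coefficient of variation over 12 libraries, which includes counting noise, had a median of 31.4% in the dorsal raphe and 21.1% in the amygdala, and it was larger in the dorsal raphe for 72 of 96 members. The highest dorsal raphe library was 1.46 to 42.1 times the lowest, with a median of 2.90 over the 95 members without a 0. It was over 4 times the lowest for 31 members in the dorsal raphe and, in the amygdala, for 13. Members with a 0 in a region are outside these counts: ENSRNOG00000042860 in the dorsal raphe and ENSRNOG00000016275, described above, in the amygdala.

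By highest over lowest library, the most even members in the dorsal raphe were ENSRNOG00000033134, at 13.9 to 20.3 CPM, and ENSRNOG00000016156, given above, both with a 1.46-fold range. By the same measure the least even was ENSRNOG00000016275, whose 42.1-fold range ran from 0.0729 CPM, a single count in 1 library, to 3.07 CPM. By the coefficient of variation ENSRNOG00000057315 was the least even, at 116% against 68.4% for ENSRNOG00000016275. It had 18.5 CPM in high-responder dorsal raphe library 6, 7.57 CPM in library 1 and 1.22 to 3.79 CPM in the other 4 high-responder libraries. Low-responder dorsal raphe libraries had 0.528 to 6.13 CPM. In the amygdala it was even, at 132 to 189 CPM, so its spread belonged to the dorsal raphe libraries.

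The members did not share one high or low library. In the dorsal raphe the highest value fell in high-responder library 6 for 16 members, in library 1 for 13, in library 2 for 12 and in library 4 for 11. The lowest value fell in low-responder library 5 for 22 members, in high-responder library 4 for 14 and in low-responder library 4 for 13. In the amygdala, low-responder library 3 was lowest for 25 members, high-responder library 6 for 21 and high-responder library 2 for 17. Low-responder libraries 1, 2, 4 and 5 were lowest for 0 members each. High-responder libraries 4 and 2 were highest for 16 and 14 members.

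Summed over the list, dorsal raphe levels spanned 836 to 1188 CPM, a narrow range beside that of single members. High-responder dorsal raphe libraries had a sum of 1029 ± 139 CPM (SD, n = 6) and low-responder ones 936 ± 76.2 CPM (SD, n = 6), and the ranges overlapped. Amygdala sums were 16042 ± 1634 CPM for high-responder and 18393 ± 1614 CPM for low-responder libraries (SD, n = 6 each), with low-responder library 3 the lowest of its group at 15773 CPM. High-responder values were 14466 to 18906 CPM. The 5 members highest in the amygdala held 40.8% of the pooled amygdala sum, so these sums also weigh few members heavily. ENSRNOG00000016275 alone gave 874 CPM in high-responder library 2 and 1528 CPM in low-responder library 6, the libraries with the highest amygdala sum of each line.

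**Figure D3:**
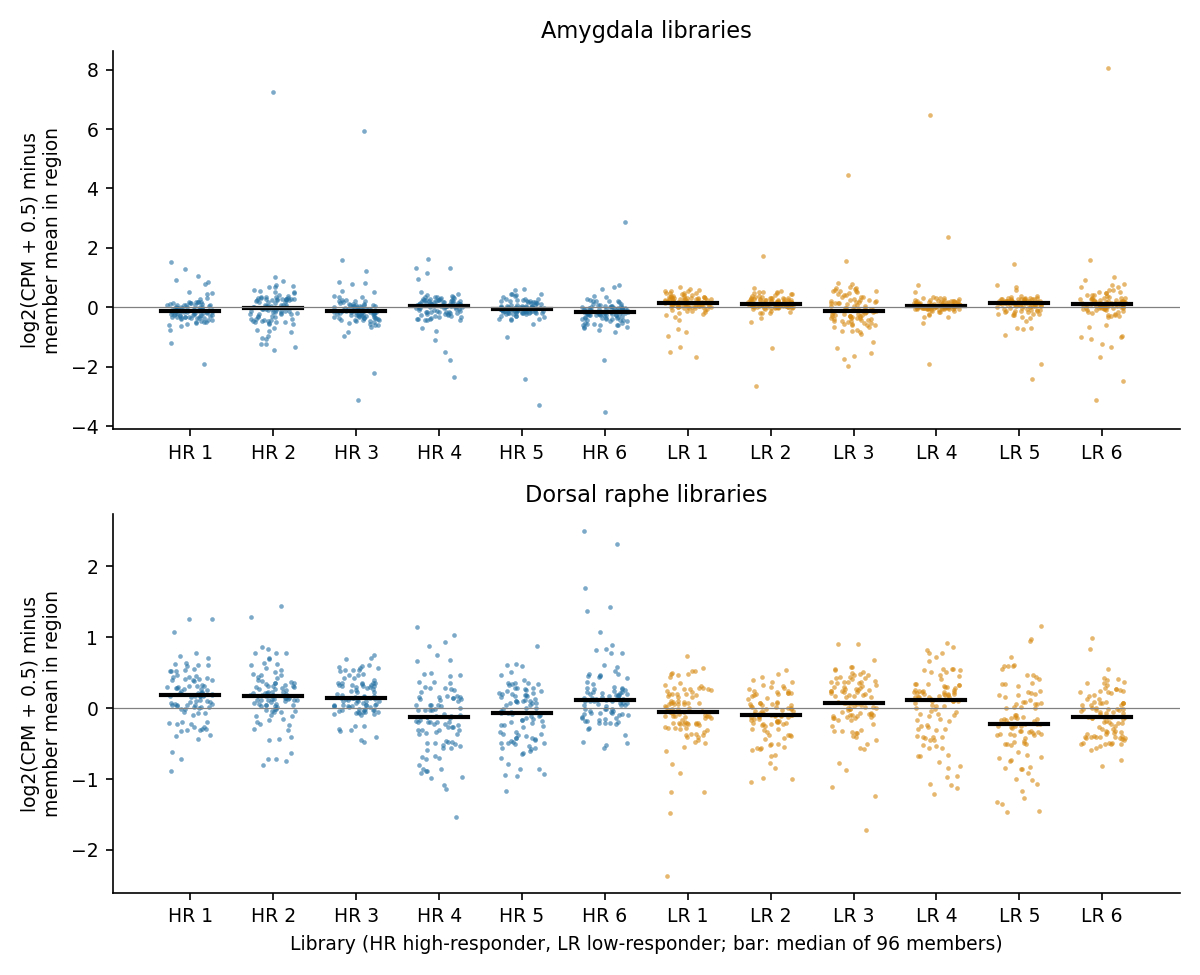
Each point is 1 member in 1 library, as log2(CPM + 0.5) minus that member's mean over the 12 libraries of the region (y axis), for amygdala (top) and dorsal raphe (bottom), and the bars are medians of 96 members. Medians run from -0.17 in high-responder amygdala library 6 to 0.15 in low-responder library 1, and from -0.23 in low-responder dorsal raphe library 5 to 0.19 in high-responder library 1; points above 4 in the amygdala belong to ENSRNOG00000016275 and ENSRNOG00000021229.

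The rule pooled both lines, so the difference between high-responder and low-responder rats within a region was not itself a limit of the rule. It is not fully separate from the rule, however. With high-responder libraries alone 13 of the 96 members failed the rule, and with low-responder libraries alone 5 did. These members were not set aside in the counts below, and how far they shape the shares in each direction was not tested. In the amygdala all 96 members were tested and 0 passed an adjusted p of 0.05 with edgeR's quasi-likelihood test, where 3 of 14265 genes did (0.021%). DESeq2 called 9 members among 82 genes. Of these, ENSRNOG00000017459, ENSRNOG00000017872 and ENSRNOG00000020009 had ratios under 8 in high-responder libraries and met the limit through the low-responder line. Their calls are not free of the rule, and nothing is read from them. An unadjusted edgeR p under 0.05 was found for 28 members, 26 lower and 2 higher in high-responder rats, against 8.34% of all genes tested (4.32% lower, 4.02% higher). Without high-responder library 2 that count was 48, against 12.03% of all genes. The log2 fold change was below 0 for 72 of 96 members (75%), against 50.6% of all genes. The median was -0.16 for the members and 0.00 for all genes, and single members ran from -2.42 to 1.62. In the libraries with earlier numbers 64 of 96 were below 0 (median -0.11, against -0.006 for all genes). In those with later numbers 79 of 95 were (median -0.22, against -0.003). The later-numbered fit compared only 2 libraries of each line, so its counts rest on few libraries. In it 7 members passed (edgeR adjusted p), 2 of them higher, where 61 of 14284 genes did (0.427%). The 7 include the 3 members just named and ENSRNOG00000016156, whose ratio was also under 8 in high-responder libraries. In the earlier-numbered libraries 18 members had an unadjusted edgeR p under 0.05, against 4.91% of all genes. In the later-numbered ones 51 did, against 10.9% of all genes.

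ENSRNOG00000054314 had the smallest unadjusted p in the amygdala. High-responder libraries had 38.8 to 50.8 CPM (median 42.1) and low-responder libraries 48.1 to 74.0 CPM (median 62.0). The lines met only at the low-responder library 3 with 48.1 CPM. The log2 fold change was -0.51 (SE 0.10), with an adjusted p of 0.153 in edgeR and 0.00253 in DESeq2. Without low-responder library 3 it was -0.58 and passed (edgeR adjusted p = 0.0184).

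ENSRNOG00000020009 had the lowest log2 fold change of the list. Its amygdala level was 1.80 to 11.7 CPM in high-responder libraries (median 4.45) and 3.62 to 54.0 CPM in low-responder libraries (median 30.1). Of the low-responder libraries, 5 lay at 16.4 CPM or above, over the whole high-responder range, and library 3 lay inside that range. Its ratio of amygdala to dorsal raphe was 2.65 in high-responder and 17.9 in low-responder libraries, so it met the rule through the low-responder line. Its log2 fold change of -2.42 was thus part of what chose it and is given without a test. It is nonetheless among the members counted as passing with DESeq2, in the libraries with later numbers, with a term for replicate and without low-responder library 3.

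The 6 high-responder amygdala libraries lay below all 6 low-responder ones for 3 members, and above them for 0. Of all genes tested, 0.294% were wholly below and 0.336% wholly above. The 3, named after their values were seen, were ENSRNOG00000018385 (97.1 to 118 against 121 to 140 CPM), ENSRNOG00000007189 (14.8 to 19.5 against 19.6 to 29.0 CPM) and ENSRNOG00000011826 (211 to 242 against 246 to 277 CPM). Their log2 fold changes were -0.23, -0.48 and -0.21, each with an edgeR adjusted p of 0.254. They did not pass with edgeR, and all 3 are among the 9 members called with DESeq2.

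In the dorsal raphe 86 of 96 members passed the filter on low counts, and the 10 that did not had pooled levels of up to 0.739 CPM. Of the 86, 0 passed an adjusted p of 0.05 with edgeR, where 9 of 14390 genes did (0.0625%), and DESeq2 called 0 members as well. An unadjusted edgeR p under 0.05 was found for 10 members, 7 higher and 3 lower in high-responder rats, against 5.05% of all genes (2.4% higher, 2.64% lower). The log2 fold change was above 0 for 64 of 86 members (74.4%), against 46.2% of all genes, with a median of 0.15 against -0.01. Without the filter it was above 0 for 71 of 96. It was above 0 for 65 of 87 members in the libraries with earlier numbers and for 63 of 87 in those with later numbers. The later set held 3 high-responder and 2 low-responder libraries. The medians were 0.22 and 0.14, against 0.0009 and 0.0007 for all genes.

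ENSRNOG00000004117 had the smallest unadjusted p there. It stood at 3.57 to 7.43 CPM in high-responder dorsal raphe (median 3.99) and 1.66 to 3.72 CPM in low-responder dorsal raphe (median 2.58). Only the high-responder library 5 with 3.57 CPM fell under the highest low-responder library. The log2 fold change was 0.78 (SE 0.23, edgeR adjusted p = 0.624). Its lines overlapped widely in the amygdala, at 57.9 to 78.0 CPM and 50.3 to 83.7 CPM.

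ENSRNOG00000048187 was lower in high-responder rats, at 1.86 to 3.38 CPM in high-responder dorsal raphe (median 2.44) and 2.53 to 4.37 CPM in low-responder dorsal raphe (median 3.85). Its log2 fold change was -0.56 (SE 0.18, edgeR adjusted p = 0.735). Its amygdala level was 18.2 to 30.3 CPM (median 24.9) in high-responder and 27.2 to 41.3 CPM (median 31.0) in low-responder libraries. The ranges overlapped in both regions.

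**Figure D4:**
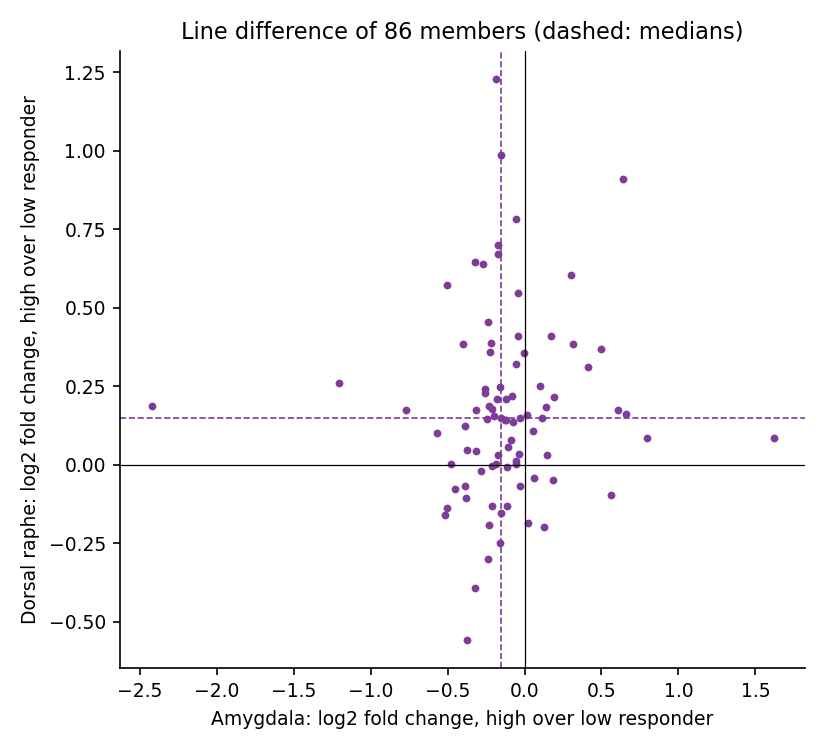
Log2 fold change of high-responder over low-responder rats in the amygdala (x axis) and the dorsal raphe (y axis) for the 86 members tested in both, with dashed lines at their medians. The upper left field, below 0 in the amygdala and above 0 in the dorsal raphe, holds 47 members; 17 lie below 0 in both, 17 above 0 in both and 5 in the lower right.

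The line difference in the amygdala minus that in the dorsal raphe was tested for all 96 members over the 24 libraries. With edgeR 0 members passed, where 1 of 14977 genes did (0.00668%), and DESeq2 called 0 members. An unadjusted edgeR p under 0.05 was found for 14 members, all 14 below 0, against 3.06% of all genes (1.74% below 0). The count was 23 without high-responder amygdala library 2, against 5.23% of all genes. It was 22 without low-responder amygdala library 3, against 4.26% of all genes. It came down to 9 when any one of these was left out: libraries 1, 3 and 6 of high-responder amygdala, library 1 of low-responder amygdala, libraries 1 and 6 of high-responder dorsal raphe, and library 1 of low-responder dorsal raphe. In those runs 2.32% to 3.42% of all genes had such a p. With all libraries, values below 0 were found for 77 of 96 members (80.2%), against 49.6% of all genes, with a median of -0.30 against 0.00. The 96 include members that met the ratio limit only through the low-responder line, so this share is not free of the rule. Among 163 genes with region ratios of 4 to 8 and the same minimum levels, the share below 0 was 75.5%, with a median of -0.14. Of the members, ENSRNOG00000004117 had the smallest unadjusted p, at -0.83 (SE 0.24, edgeR adjusted p = 0.9999). For ENSRNOG00000020009 the difference was -2.62, given without a test for the reason above.

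Pooled levels, from the same counts, gave a smaller ratio of amygdala to dorsal raphe in high-responder rats for 78 of 96 members. The median ratio was 14.3 in high-responder and 15.9 in low-responder libraries, and the ratio of the 2 had a median of 0.812 over members. A ratio of at least 8 was reached by 85 members in high-responder and by 96 in low-responder libraries. Members under 8 in high-responder libraries met the limit through the low-responder line. The rule used these ratios and no like share was taken over other genes, so nothing is read from these counts.

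Genes with smaller region ratios and the same minimum levels were set beside the members. In the amygdala the share below 0 for high over low-responder rats was 58.9% of 4494 genes with ratios of 1 to 2, 68.7% of 531 genes with ratios of 2 to 4 and 75.5% of 163 genes with ratios of 4 to 8. The 75% of the members was thus close to that of the group with the next lower ratios. In the dorsal raphe the share above 0 was 45.1%, 46.1% and 51.5% in the same groups, against 74.4% of the members that passed the filter. For the line by region difference the share below 0 was 58.1%, 66.5% and 75.5% in these groups, against 80.2% of the members. That share thus rose with the region ratio and was high outside the list as well. The differences between these shares were not tested.

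The dorsal raphe libraries with later and earlier numbers were compared within the lines. Of the 86 members 24 passed with edgeR, 5 higher and 19 lower in later libraries. Over all genes tested 48.1% passed, 24.3% higher and 23.8% lower. The members' share was 27.9%, with 5.81% called higher and 22.1% lower. Its difference from the share of all genes was not tested, and the members were chosen partly for their low dorsal raphe level. The median log2 fold change was -0.06, against 0.03 for all genes. Without low-responder library 5, 14 members passed, against 34.1% of all genes. Without high-responder library 6, the one set apart by its number, 30 passed, against 53.4% of all genes. Leaving out each library in turn gave 14 to 30.

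ENSRNOG00000018282 fell most, by 1.52 on the log2 scale (SE 0.39; with edgeR, adjusted p = 0.00713). Its later dorsal raphe libraries had 0.690, 1.19 and 2.48 CPM in high-responder and 0.460 and 1.46 CPM in low-responder rats. Its earlier ones had 2.55, 5.89 and 3.51 CPM and 3.28, 1.24, 3.35 and 4.28 CPM. The low-responder library 2 with 1.24 CPM overlapped the later range. In the amygdala, with 101 to 200 CPM, later and earlier libraries differed by 0.03 on the log2 scale (SE 0.12).

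ENSRNOG00000024310 fell as well, by 1.36 in log2 (SE 0.34; with edgeR, adjusted p = 0.00641). Its later libraries had 1.17, 1.41 and 3.98 CPM in high-responder and 0.690 and 1.36 CPM in low-responder dorsal raphe. Earlier libraries had 2.93 to 5.63 CPM, so only high-responder library 6 among the later ones reached their range. Its amygdala level was 63.0 to 112 CPM.

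ENSRNOG00000020009 rose in later dorsal raphe libraries by 1.12 in log2 (SE 0.37; with edgeR, adjusted p = 0.0251). Later libraries had 3.24, 2.60 and 0.885 CPM in high-responder and 2.61 and 3.14 CPM in low-responder rats, against 0.533 to 2.11 CPM in earlier ones. High-responder library 6 lay among the earlier libraries. The call ended without high-responder library 4 (0.97, edgeR adjusted p = 0.0772), low-responder library 5 (1.03, 0.0724) or low-responder library 6 (0.97, 0.0668).

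ENSRNOG00000059866 rose by 0.95 in log2 (SE 0.27; with edgeR, adjusted p = 0.0121). Later libraries had 1.86, 1.95 and 3.36 CPM in high-responder and 2.76 and 2.30 CPM in low-responder dorsal raphe, and earlier ones 0.611 to 2.19 CPM. The call ended without low-responder library 5 (0.83, edgeR adjusted p = 0.0553). Its amygdala level was 10.6 to 27.3 CPM.

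**Figure D5:**
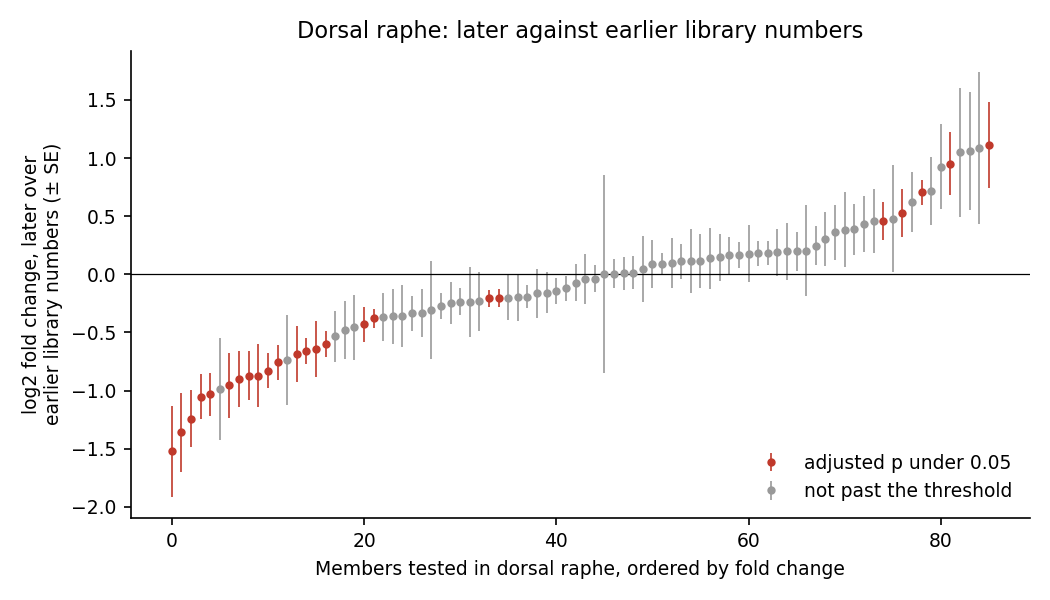
Log2 fold change of later over earlier library numbers in the dorsal raphe (y axis, bars ± SE) for the 86 members tested, ordered from lowest to highest (x axis). Red points passed an edgeR adjusted p of 0.05 (24 members, 19 below 0 and 5 above) and grey points did not; the lowest is at -1.52 and the highest at 1.12.

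The same split of the amygdala libraries called 0 of 96 members with edgeR and 0 of 14265 genes (0%), with 7 members at an unadjusted p under 0.05 against 3.82% of all genes. Without high-responder library 2 that count was 19, against 6.66% of all genes. DESeq2 called 0 members. The median log2 fold change of the members was 0.00. Among the 4 members described above, amygdala values ranged from -0.15 (SE 0.56) for ENSRNOG00000020009 to 0.13 (SE 0.24) for ENSRNOG00000059866.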

How the data were processed

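The deposited values are raw read counts per Ensembl gene ID, 1 table per library. The submitters' processing notes name Trim Galore, STAR and build rn6; versions, counting program, annotation and strand setting are not given in the sources used here. Reads shared by near-identical, overlapping or antisense genes could therefore not be told apart. Tables had 0 lines naming no gene.

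CPM values printed here were computed from the counts and raw library totals. Tests used edgeR 4.0.16 under R 4.3.3 (glmQLFit, glmQLFTest) after filterByExpr and TMM scaling, with Benjamini-Hochberg adjustment over all genes tested, and positive values mean a higher level in the high-responder line or in later libraries. Standard errors are the log2 fold change over the square root of F. Alternatives were DESeq2 1.42.0, RLE, other filters, terms for library number and replicate, and leaving out libraries. Each fit was also run on simulated counts. The outcome is not given here, so it says nothing on which differences the fits could miss.

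The members, lists and tests were chosen with earlier results of these data known. Named members are the first 2 of each direction by smallest p, size of the called change, dorsal raphe level, region ratio and evenness in the dorsal raphe. These are fewer than the planned numbers, since IDs carry no symbol. Planned gene lists could not be applied.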

Additional observations from a re-analysis of the deposited data

Results flagged for a closer look

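Of 92 groups of 6 values, 10 held 1 library far outside the range of the rest. Chance gives this in about 1 in 20 groups, but the groups belong to the named members, several of which were chosen for being uneven, so the count of 10 is not set against that rate. ENSRNOG00000016275 stood at 874 CPM in high-responder amygdala library 2 (others 0 to 1.04) and 1528 CPM in low-responder amygdala library 6 (others 0.415 to 509). ENSRNOG00000021229 stood at 220 CPM in high-responder amygdala library 3 (others 0.181 to 25.6) and 79.2 CPM in low-responder amygdala library 3 (others 0.143 to 0.927).

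Low-responder amygdala library 3 also stood apart for 3 more members. ENSRNOG00000018282 was high there at 200.3 CPM (others 130 to 156), while ENSRNOG00000042326 was low at 6.24 CPM (others 12.05 to 13.2), as was ENSRNOG00000042860 at 7.93 CPM (others 15.3 to 19.0). ENSRNOG00000059605 stood at 1632 CPM in high-responder amygdala library 2 (others 1095 to 1209).

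High-responder dorsal raphe library 6 stood apart for ENSRNOG00000057315, at 18.5 CPM (others 1.22 to 7.57), and for ENSRNOG00000004117, at 7.43 CPM (others 3.57 to 4.24).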

How the results depend on the processing

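The number of genes meeting the rule was 96 with TMM-scaled totals, 95 with the mean of library values, 91 without the 50 most counted genes in the totals, 86 in high-responder and 102 in low-responder libraries alone, 137 at a ratio of 6 and 61 at a ratio of 12, and 94 to 99 without any one library. Members called between the lines in the amygdala numbered 9 with DESeq2, 7 in later-numbered libraries only, 1 with the replicate block, 2 without the libraries numbered 3 of both lines (added after seeing the data) and 0 to 2 without any one library; over all genes the counts were 3 as reported, 82 with DESeq2, 61 in later-numbered and 0 in earlier-numbered libraries, and 1 to 27 without any one library. In the dorsal raphe, where all genes called numbered 9 as reported, 39 with DESeq2, 5 with the replicate block, 16 in earlier-numbered and 0 in later-numbered libraries, and 3 to 12 without any one library, and for the line by region difference, 0 members were called under every alternative run. Later against earlier dorsal raphe libraries called 14 to 30 members without any one library, and 34.1% to 53.4% of all genes. The labels do not say whether the replicate number pairs the libraries. Between groups that share numbers, 1 to 3 of 6 pairs correlated above 0.1, which cannot show whether animals were shared. The block called 1 member in the amygdala, ENSRNOG00000020009, and 0 between the lines in the dorsal raphe or for the line by region difference. Some members called in the amygdala under these alternatives met the ratio limit through the low-responder line, as given above. The median line difference of the members kept its sign under each alternative run, at -0.22 to -0.11 in the amygdala, 0.12 to 0.22 in the dorsal raphe and -0.33 to -0.22 for the difference between regions. Depth limits members near 0.5 CPM in the dorsal raphe, where 10 were not tested.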
